A study of Homo sapiens with 15 samples.

Results

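Lysosomes break down proteins, lipids and glycans delivered by endocytosis and by autophagy, and their acid interior is kept by a proton pump, the V-ATPase. Cathepsins and other hydrolases carry out the digestion, while membrane proteins such as LAMP1 and LAMP2 enclose it and NPC1 and NPC2 pass cholesterol out. Many of these genes share a short DNA element, the CLEAR element built around CACGTG, that is bound by the MiT/TFE transcription factors TFEB, TFE3 and MITF. The 36 genes described here were taken by symbol from the 19612 gene symbols of the count table, and comprise 8 cathepsins, 6 membrane and cholesterol export genes, 6 glycosidases, 6 sphingolipid, lipid and peptide hydrolases, 4 autophagy genes, 3 V-ATPase genes and 3 MiT/TFE factors.

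H1975 cells come from a human lung adenocarcinoma that carries mutant EGFR, as does H1975–OR, a subline made resistant to the EGFR inhibitor osimertinib by prolonged exposure. RNA from 5 conditions was sequenced with 3 libraries each, namely H1975 with vehicle (Samples 1a, 1b and 1c), and H1975–OR with vehicle (2a, 2b and 2c), with 100 nM 1,25(OH)2D3, the active form of vitamin D3 (3a, 3b and 3c), with 500 nM osimertinib (4a, 4b and 4c), or with both agents at these doses (5a, 5b and 5c). The treatment lasted 96 h, with doses given at 0, 48 and 92 h, per the study's methods. The methods describe separate passages for the vehicle and 1,25(OH)2D3 groups. Per the labels, H1975–OR cells were routinely grown in 500 nM osimertinib. Growth medium was exchanged for treatment medium with charcoal stripped serum on the day after plating, and whether the drug had been withdrawn earlier is not given in the sources used here. H1975 was given vehicle alone, so no treatment was measured in the parental cells.

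Summed counts ranged from 4378033 to 6140025 per library. Sample 3a stood apart, with a mean correlation of 0.886 with the other libraries of its group against 0.917 to 0.956 for the other 14 libraries, and with the largest share of mitochondrial transcripts (1.54%, against 0.424% to 1.05%). It was left out of the tests, as in the study, except where it is said to be kept in. Ranges and means leave it out unless 3a is named. Levels are given as CPM, counts scaled to a common library size with TMM factors over all 15 libraries, with the mean ± SD over 3 libraries, or 2 for 1,25(OH)2D3 alone. Differences are log2 fold changes ± standard error from the quasi-likelihood test of edgeR, with p-values adjusted by Benjamini-Hochberg over all genes tested, and each fit had its own scaling. A call means an adjusted p under 0.05. Over the 14 libraries without 3a, epithelial and lung adenocarcinoma markers summed to between 2809 and 4448 CPM, with KRT18 the largest part. EPCAM, an epithelial adhesion molecule, was at 151.6 ± 68.6 CPM in H1975 and 11.6 ± 1.96 CPM in vehicle-treated H1975–OR. CDH1, encoding E-cadherin, was at 243.4 ± 138 and 6.94 ± 2.20 CPM, and at 129.8 ± 31.0 CPM with 1,25(OH)2D3. In H1975 and vehicle-treated H1975–OR, KRT19 was at 1144 ± 100 and 339.9 ± 113.3 CPM, and KRT18 at 1899 ± 136 and 2445 ± 108.6 CPM. The lung markers NAPSA and SFTPB reached at most 2.25 and 1.90 CPM. Macrophages are rich in lysosomes, and 7 macrophage and leukocyte markers summed to between 11.3 and 54.2 CPM in these 14 libraries. In 3a the monocyte marker CD14 alone was at 50.9 CPM, against at most 6.93 CPM in the others. Among the 7, CD163 and AIF1 were at or under 3 counts in every library. In bulk RNA, fewer cells of a kind and less RNA per cell cannot be told apart.

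Promoter sequences show how densely the CACGTG element can occur in front of these genes. RefSeq promoter windows, from 250 bases before to 50 bases after the transcription start on GRCh38.p14, matched 30 of the 36 genes by symbol. CTSB, LAMP2, HEXA, ASAH1, PSAP and ATP6V1H had no entry. CACGTG, which reads the same on both strands, occurred in 9 of the 30 genes (30%), against 8.77% of all 27305 genes with an entry. The longer TCACGTG, searched on both strands and always holding CACGTG, occurred in 8 of 30 (26.7%) against 4.49% of all genes. These 8 genes were CTSA, CTSD, CTSF, LAMP1, MCOLN1, GAA, NEU1 and ATP6V0D1. The lysosomal membrane glycoprotein gene LAMP1 had the most TCACGTG matches, 6 in its window. Against 14528 genes of the count table with an entry the shares were 11.1% and 5.93%. A match describes these letters alone.

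The stretches below hold the matches nearest to the results. CTSF is shown because its RNA differed between the cell lines, CTSD because its RNA was higher in every library given 1,25(OH)2D3, and GAA, encoding acid alpha-glucosidase, and LAMP1 because they show a complete and a repeated element. CTSD, GAA and LAMP1 were chosen after their values were seen. Capitals mark CACGTG with a T before it, an A after it, or both. The CTSF stretch is limited to 30 bases because it lies in an exon of an alternative GENCODE transcript, and the other stretches lie outside annotated exons on the same strand. Each is read 5′ to 3′ on the strand of its gene.
CTSF, minus strand, chr11:66568712-66568741: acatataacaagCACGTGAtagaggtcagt
CTSD, minus strand, chr11:1763965-1764067: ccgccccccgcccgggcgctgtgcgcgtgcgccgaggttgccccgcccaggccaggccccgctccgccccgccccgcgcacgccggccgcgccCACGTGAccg
GAA, plus strand, chr17:80101441-80101532: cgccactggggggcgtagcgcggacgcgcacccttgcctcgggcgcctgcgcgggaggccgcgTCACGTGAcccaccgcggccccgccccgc
LAMP1, plus strand, chr13:113297039-113297238: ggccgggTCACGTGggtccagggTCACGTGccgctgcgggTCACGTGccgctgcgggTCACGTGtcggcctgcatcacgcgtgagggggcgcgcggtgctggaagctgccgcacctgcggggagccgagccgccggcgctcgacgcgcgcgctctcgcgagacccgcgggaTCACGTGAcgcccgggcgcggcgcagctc

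Per length of transcript, prosaposin RNA was by far the most abundant of the 36. The level of PSAP, the precursor of the saposins that help sphingolipid hydrolases, had a median of 815.5 CPM per kb of its MANE Select transcript over the 14 libraries without 3a. It was followed by the aspartic protease CTSD (330.8 CPM per kb), the tetraspanin CD63 (232.2), the dipeptidyl peptidase CTSC (160.4) and the autophagy receptor SQSTM1 (131.6). Low in the order stood TFEB (5.16 CPM per kb), GUSB (3.35), TPP1 (1.11) and MCOLN1 (0.187). MCOLN1, the lysosomal calcium channel, never exceeded 2.25 CPM, did not pass the filter on low counts and was not tested. The other 35 were tested in both fits.

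**Figure D1:**
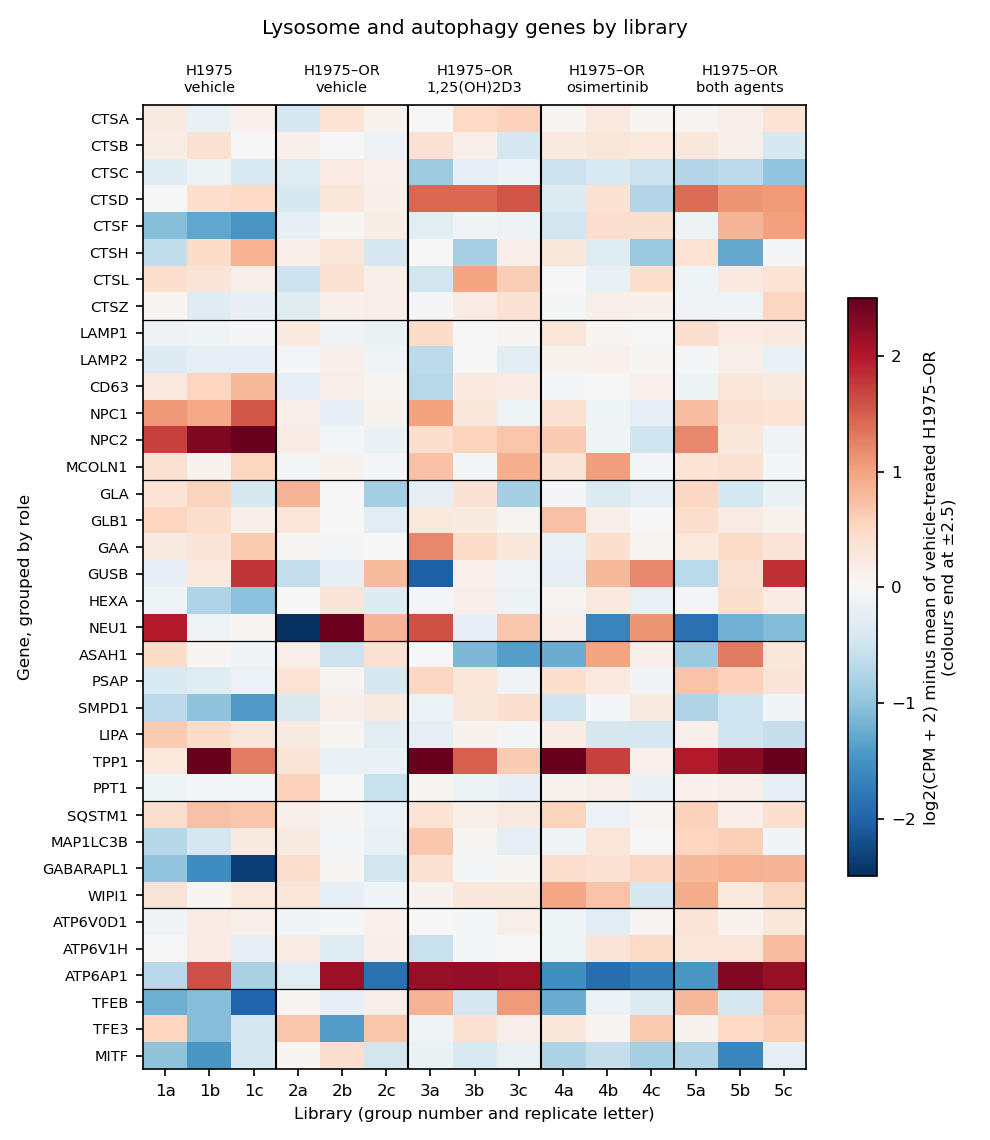
Each cell gives log2(CPM + 2) of 1 gene (rows, grouped by role) in 1 library (columns, in 5 groups of 3) minus the mean of the 3 vehicle-treated H1975–OR libraries, red above and blue below. NPC2 and NPC1 are red in the 3 H1975 libraries, CTSF, SMPD1, GABARAPL1 and TFEB are blue there, CTSD is red in every library given 1,25(OH)2D3, and ATP6AP1, NEU1 and TPP1 change from library to library within groups.

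The first comparison asks how H1975–OR cells differed from H1975 when both were given vehicle. Among the 35 genes tested, 4 were higher in H1975–OR (CTSF, SMPD1, GABARAPL1 and TFEB) and 4 were lower (NPC1, NPC2, CD63 and SQSTM1). Of all 12513 genes tested, 9.89% were called higher and 10.3% lower, so 4 of 35 in each direction is near the background. The libraries of the cell lines did not overlap for 5 members that were higher and 6 that were lower, against 19% and 20.3% of all genes. The median log2 fold change was −0.02 over the members and 0.01 over all genes tested. By role, 1 of 8 cathepsins, 3 of 5 tested membrane and cholesterol export genes, 0 of 6 glycosidases, 1 of 6 lipid and peptide hydrolases, 2 of 4 autophagy genes, 0 of 3 V-ATPase genes and 1 of 3 MiT/TFE factors were called.

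Both cholesterol export genes were lower in H1975–OR. NPC2 (ENSG00000119655, chr14:74476192-74494177, minus strand, 5 exons in its MANE Select transcript), the soluble protein that hands cholesterol to NPC1, was at 174.3, 272.9 and 319.7 CPM in H1975 and at 60.6, 51.1 and 46.1 CPM in H1975–OR. Every H1975 library was above every H1975–OR library, and the log2 fold change was −2.26 ± 0.22 (4.81-fold lower, adjusted p = 0.000572). NPC1 (ENSG00000141458, chr18:23506184-23586506, minus strand, 25 exons), the membrane transporter, was at 104.6, 94.6 and 144.3 CPM in H1975 and at 52.8, 41.2 and 51.1 CPM in H1975–OR. The groups again did not overlap (log2 fold change −1.23 ± 0.20, 2.34-fold lower, adjusted p = 0.00435). CD63, a tetraspanin of late endosomes and exosomes, fell from 306.7 ± 59.0 to 210.2 ± 28.2 CPM (248.1, 305.7 and 366.1 CPM against 178.6, 232.9 and 219.0 CPM, log2 fold change −0.53 ± 0.16, adjusted p = 0.0462). Its nearest libraries, 1a and 2b, were close, and its call was lost when any library except 1a was left out and with 3a kept in. LAMP1 and LAMP2 were not called, with log2 fold changes of 0.12 and 0.27.

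The autophagy genes were divided. SQSTM1, encoding p62, a receptor that links ubiquitinated cargo to the autophagosome, was at 447.7, 548.8 and 527.9 CPM in H1975 and at 357.5, 334.2 and 294.4 CPM in H1975–OR (log2 fold change −0.61 ± 0.12, adjusted p = 0.00885). GABARAPL1 (ENSG00000139112, chr12:10212458-10223128, plus strand, 4 exons), an ATG8 protein that is coupled to autophagosome membranes, was at 20.4, 13.3 and 6.72 CPM in H1975 and at 58.5, 43.4 and 30.5 CPM in H1975–OR. Neither gene's groups overlapped, and the GABARAPL1 log2 fold change was 1.71 ± 0.38 (3.28-fold higher, adjusted p = 0.0159). GABARAPL1 lost its call without 1b (adjusted p = 0.0612). MAP1LC3B, encoding another ATG8 protein, and WIPI1, which binds phosphoinositides on the forming autophagosome, were not called (log2 fold changes 0.29 and −0.22).

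Of the hydrolases, 1 cathepsin and acid sphingomyelinase were higher in H1975–OR. CTSF (ENSG00000174080, chr11:66563464-66568879, minus strand, 13 exons), a cysteine protease whose upstream element is printed above, was at 65.5, 54.9 and 49.1 CPM in H1975 and at 119.7, 140.6 and 158.3 CPM in H1975–OR (log2 fold change 1.32 ± 0.15, 2.49-fold higher, adjusted p = 0.00114). SMPD1 (ENSG00000166311, chr11:6390440-6394998, plus strand, 6 exons), which cleaves sphingomyelin to ceramide, was at 28.8, 22.1 and 16.1 CPM in H1975 and at 35.6, 50.9 and 54.2 CPM in H1975–OR (log2 fold change 1.08 ± 0.24, adjusted p = 0.0163). The groups were separate for both genes. SMPD1 lost its call without 1b, 2b or 2c, with adjusted p of 0.0612, 0.0561 and 0.0548. CTSF, NPC1, NPC2 and SQSTM1 were called under all 12 alternatives.

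The MiT/TFE factors were low in both cell lines. TFEB, a master regulator of lysosomal genes, was at 5.20, 6.02 and 2.24 CPM in H1975 and at 15.4, 12.6 and 16.6 CPM in H1975–OR (log2 fold change 1.73 ± 0.49, adjusted p = 0.0396). The groups did not overlap, but the call was lost with any 1 library left out (adjusted p 0.0662 to 0.105) and with the replicate letter as a block (0.0810). MITF, best known for melanocytes, was at 19.4, 13.5 and 29.3 CPM against 42.2, 55.0 and 28.9 CPM (log2 fold change 1.04 ± 0.32, adjusted p = 0.0518). Sample 1c was above 2c, and MITF was called without the filter on low counts (0.0476), without 1c (0.0322), without 2c (0.0398) and by DESeq2 (0.0207). TFE3, which binds the same element, had overlapping libraries, at 25.1, 6.93 and 12.0 CPM against 28.2, 5.17 and 28.5 CPM (log2 fold change 0.50 ± 0.63, adjusted p = 0.614).

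**Figure D2:**
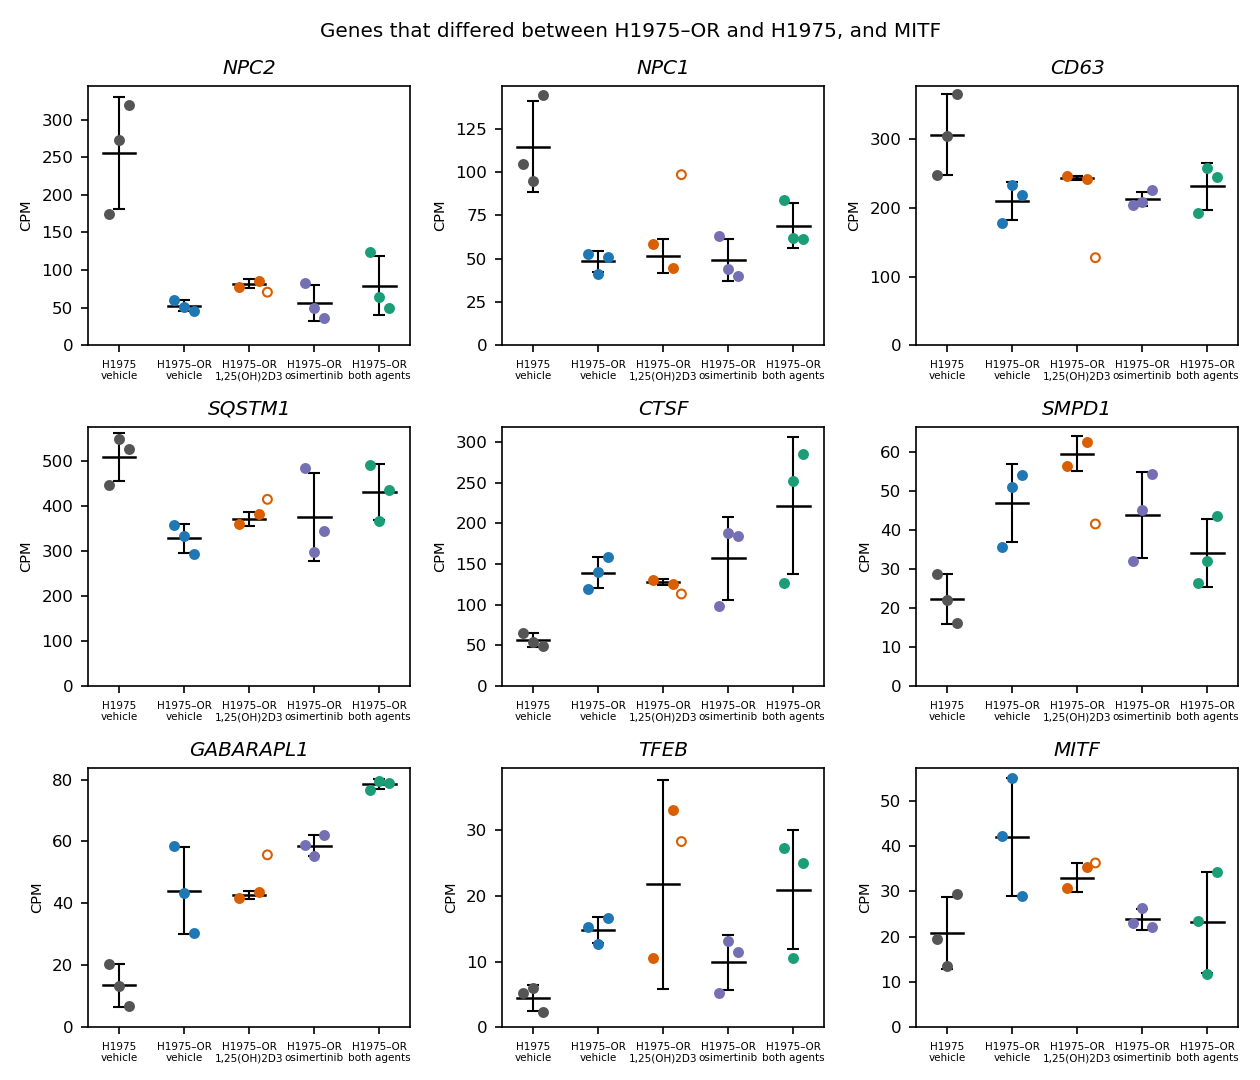
CPM (vertical axes, from 0) of the 8 genes called between the cell lines and of MITF in each library of the 5 groups. Horizontal lines are means, bars are 1 SD without Sample 3a, and the open circle is 3a. All 3 H1975 libraries of NPC2 (174.3 to 319.7 CPM) lie above every H1975–OR library, and GABARAPL1 lies at 76.6 to 79.7 CPM with both agents.

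Leaving out 1b gave 4 calls among the members and leaving out 2b gave 5, in place of 8. Calls over all genes fell as well, from 1237 higher and 1284 lower in the main test. Without 1b they were 676 and 750, and without 2b 705 and 736. Macrophage and leukocyte marker sums also differed between the lines, at 38.3 to 54.2 CPM in H1975 and 15.9 to 23.5 CPM in vehicle-treated H1975–OR, mostly from CD68, itself a lysosomal membrane protein (23.8 to 38.6 CPM against 12.8 to 16.2 CPM). Their part in these differences was not tested.

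The other genes of the pathway, a list of 106 written for this description with 102 tested, gave 15 higher and 10 lower in H1975–OR, where 9.89% and 10.3% of all genes were called. Among ATG8 proteins, adaptors and fusion genes 4 of 11 were higher and 1 was lower, and among initiation and conjugation genes 3 of 20 were higher and 3 lower. The largest rises were RRAGD, a small GTPase that relays amino acid supply to mTORC1 (log2 fold change 2.26 ± 0.69, adjusted p = 0.0496), SORT1, the sorting receptor sortilin (2.00 ± 0.25, 0.00154), MAP1LC3A, an ATG8 protein (1.801 ± 0.55, 0.0495), GABARAP, another ATG8 protein (1.39 ± 0.25, 0.00712), and SLC17A5, the sialic acid exporter (1.23 ± 0.20, 0.00429). The largest falls were the cysteine proteases CTSV (−1.63 ± 0.24, adjusted p = 0.00333) and CTSS (−1.61 ± 0.45, 0.0377), the potassium and proton channel TMEM175 (−1.51 ± 0.45, 0.0476), and the autophagy genes ATG101 (−1.04 ± 0.14, 0.00212) and ATG7 (−0.72 ± 0.17, 0.0188). Of these 10, SORT1, GABARAP, SLC17A5, CTSV and ATG101 were called under all 12 alternatives and ATG7 under 10, while RRAGD and CTSS were called under 5, TMEM175 under 4 and MAP1LC3A under 3. SORT1 was at 22.0, 21.3 and 27.3 CPM in H1975 and at 122.2, 88.3 and 68.3 CPM in H1975–OR. Paralogs in these families are similar in sequence, and how reads were divided among them was not tested.

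The second comparison asks what 1,25(OH)2D3 did to H1975–OR cells. None of the 35 genes passed the adjusted threshold in edgeR's quasi-likelihood test, against 0.152% of all genes called higher and 0% called lower. At an unadjusted p under 0.05 there were 4 members higher (CTSD, CTSA, CTSL and NPC2) and 1 lower (ASAH1), where 3.64% and 3.63% of all genes were. DESeq2 called 2 members, CTSD and ASAH1, where it called 79 of all genes higher and 45 lower. The libraries did not overlap for 11 members that were higher and 1 that was lower, against 13.1% and 12.3% of all genes, and the median log2 fold change was 0.03 against −0.01 over all genes.

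CTSD (ENSG00000117984, chr11:1752752-1764573, minus strand, 9 exons), the main aspartic protease of the lysosome, had the largest fitted difference once TPP1, with 4 counts in all vehicle libraries together, is set aside. It was at 390.6, 630.0 and 567.6 CPM with vehicle and at 1416 and 1540 CPM with 1,25(OH)2D3, and Sample 3a was at 1402 CPM. Every 1,25(OH)2D3 library was above every vehicle library, and the log2 fold change was 1.48 ± 0.21 (2.79-fold, unadjusted p = 8.32e-05, adjusted p = 0.0521 by edgeR). Without the low-count filter the adjusted p was 0.0181, with 3a kept in 0.0307, with the replicate letter as a block 0.0383 and by DESeq2 1.97e-08, and over all 13 alternatives the edgeR and DESeq2 values reached 0.247 at most. The letters did not meet the rule, given below, for pairing vehicle with 1,25(OH)2D3 alone, which had 2 pairs. CTSD is also one of the genes that the study chose on these samples for a heatmap of epithelial differentiation genes, so it is not independent evidence here. GENCODE 44 places a second gene, ENSG00000250644, on the same strand over 62.1% of the exonic length of CTSD, and reads of the overlap cannot be assigned to one of them.

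No other cathepsin was called. CTSA, which protects beta-galactosidase and neuraminidase, was at 140.2, 237.0 and 198.2 CPM with vehicle and 265.1 and 280.6 CPM with 1,25(OH)2D3, but at 185.8 CPM in 3a (log2 fold change 0.51 ± 0.21, adjusted p = 0.646). CTSL, a cysteine protease, was at 7.98, 16.6 and 13.9 CPM against 26.4 and 19.9 CPM, and at 8.43 CPM in 3a (0.85 ± 0.32, adjusted p = 0.597). In both genes 3a lay among the vehicle libraries. The cysteine proteases CTSB, CTSF and CTSH had log2 fold changes of −0.13, −0.12 and −0.32.

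NPC2, low in H1975–OR, was at 78.0 and 85.9 CPM with 1,25(OH)2D3 and at 70.5 CPM in 3a, above the 46.1 to 60.6 CPM of vehicle and far under the 174.3 to 319.7 CPM of H1975 (log2 fold change 0.64 ± 0.24, adjusted p = 0.590). ASAH1, the acid ceramidase, was at 71.6, 43.4 and 83.3 CPM with vehicle and 28.1 and 23.2 CPM with 1,25(OH)2D3 (−1.36 ± 0.30, adjusted p = 0.215 by edgeR and 0.00332 by DESeq2). Sample 3a did not share this, at 64.3 CPM. TFEB was uneven with 1,25(OH)2D3, at 10.5 and 33.1 CPM, on either side of the vehicle libraries, with 3a at 28.3 CPM (0.56 ± 0.51, adjusted p = 0.882).

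The third comparison asks what osimertinib did to the resistant cells. No member was called by edgeR, against 0.032% of all genes higher and 0.016% lower. At an unadjusted p under 0.05, TPP1 was higher and ATP6AP1, CTSC and MITF were lower, where 3.62% and 3.9% of all genes were. DESeq2 called TPP1 alone among the members, where it called 61 of all genes higher and 56 lower. CTSC, which activates granule serine proteases, was at 307.7, 440.9 and 409.5 CPM with vehicle and 264.9, 291.8 and 263.6 CPM with osimertinib, with no overlap (log2 fold change −0.49 ± 0.14, adjusted p = 0.389). MITF was at 23.0, 26.4 and 22.1 CPM with osimertinib, under every vehicle library (−0.81 ± 0.34, adjusted p = 0.626). TFEB was at 5.14, 13.1 and 11.5 CPM, overlapping vehicle (−0.58 ± 0.50, adjusted p = 0.885).

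The fourth comparison asks whether 1,25(OH)2D3 acted in the presence of osimertinib. No member was called by edgeR, against 0.056% of all genes higher and 0.04% lower. DESeq2 called CTSD, where it called 46 of all genes higher and 20 lower. At an unadjusted p under 0.05, CTSD, NPC1 and the V-ATPase genes ATP6AP1 and ATP6V0D1 were higher and CTSC was lower, where 2.07% and 2.09% of all genes were. Between the cell lines and between osimertinib and vehicle, CTSD libraries overlapped (log2 fold changes −0.28 ± 0.19 and −0.19 ± 0.26). CTSD was at 413.3, 664.3 and 311.5 CPM with osimertinib and 1363, 1111 and 1085 CPM with both agents, again without overlap (log2 fold change 1.35 ± 0.27, unadjusted p = 0.000429, adjusted p = 0.224 by edgeR and 0.000248 by DESeq2). ATP6V0D1, a subunit of the membrane part of the pump, was at 100.7, 90.3 and 112.3 CPM against 136.2, 116.6 and 133.8 CPM (0.34 ± 0.12, adjusted p = 1). NPC1 was at 63.0, 44.2 and 40.1 CPM against 83.8, 62.1 and 61.3 CPM, so that 4a lay among the libraries with both agents (0.48 ± 0.21, adjusted p = 1). SMPD1, higher in H1975–OR than in H1975, was at 32.2, 45.1 and 54.2 CPM with osimertinib and 26.5, 32.0 and 43.6 CPM with both agents (−0.37 ± 0.25, adjusted p = 1). The letters paired these groups, by the rule given below. In each lettered pair the library with both agents was higher for NPC1 and lower for SMPD1. With the letter as a block edgeR called no member, and 23 of all genes higher and 10 lower. The adjusted p was then 0.409 for NPC1, 0.419 for SMPD1 and 0.105 for CTSD.

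Since 1,25(OH)2D3 was tested without and with osimertinib in libraries that were not shared, its effects could be set side by side. Of 35 members, 17 were higher in both, 6 were lower in both and 12 had opposite signs, so 65.7% had the same sign, against 57% of all 12234 genes tested in both fits. The difference between the effects was called for no member by edgeR (0% of all genes in either direction), and no member had an unadjusted p under 0.05, where 1.22% of all genes were higher and 1.42% lower. DESeq2 called 2 genes higher and 9 lower for this difference, none of them members. For CTSD the difference was −0.13 ± 0.39 (adjusted p = 1), which does not show that the effects were equal. ATP6AP1 and ASAH1 had wide differences of 2.38 ± 1.56 and 1.63 ± 0.92.

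Averaged over cells without and with osimertinib, a comparison added after the data had been seen, the 1,25(OH)2D3 effect on CTSD passed the threshold (log2 fold change 1.42 ± 0.20, 2.67-fold higher, adjusted p = 0.0155). It was the only member called, where 0.336% of all genes were called higher and 0.032% lower. All 5 libraries with 1,25(OH)2D3, from 1085 to 1540 CPM, were above all 6 H1975–OR libraries without it, from 311.5 to 664.3 CPM. No other member was so placed in either direction, against 0.736% of all genes that were higher and 0.28% that were lower. The H1975 libraries, at 518.2, 695.3 and 733.7 CPM, were also under the libraries with 1,25(OH)2D3, though parental cells were not given the hormone. At an unadjusted p under 0.05, 4 members were higher (CTSD, ATP6AP1, GAA and TFEB) and CTSC was lower, where 3.82% and 3.62% of all genes were. The CTSD call was lost without 3b (adjusted p = 0.0579) and without 3c (0.0888).

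**Figure D3:**
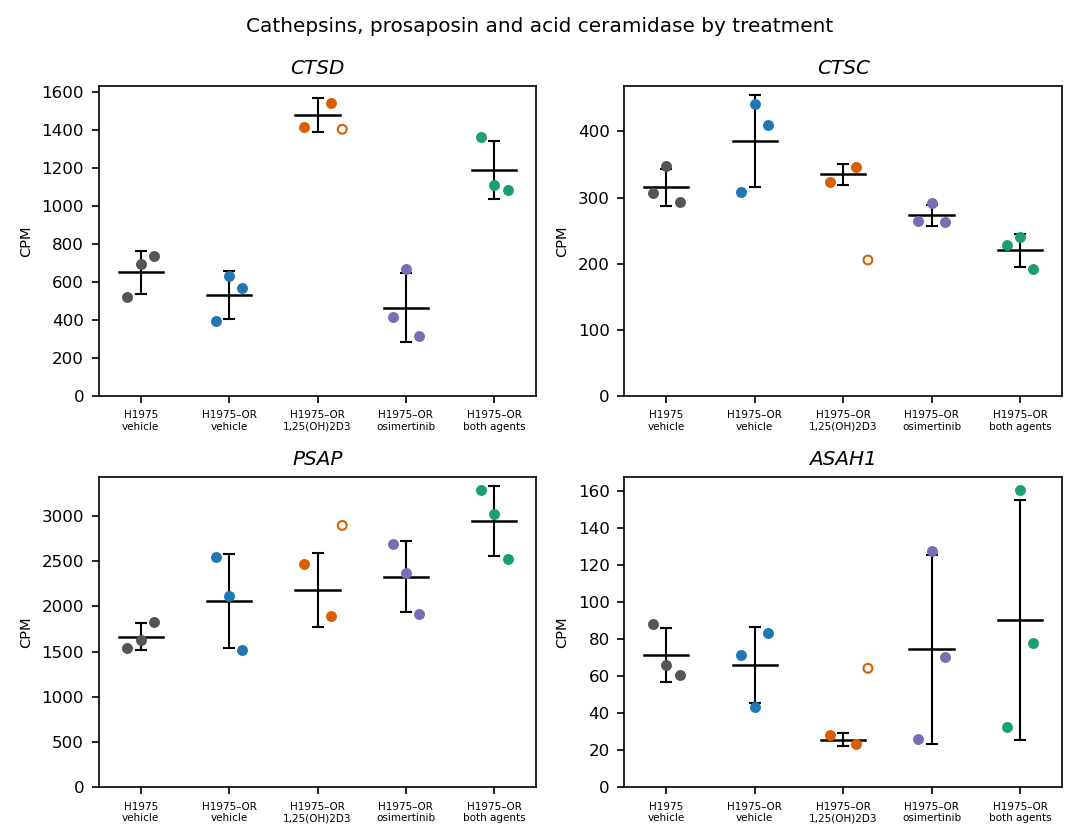
CPM (vertical axes, from 0) of CTSD, CTSC, PSAP and ASAH1 in each library of the 5 groups, with means as lines, 1 SD as bars without Sample 3a, and 3a as an open circle. CTSD forms a lower band at 311.5 to 733.7 CPM without 1,25(OH)2D3 and an upper band at 1085 to 1540 CPM with it, and CTSC is lowest with both agents.

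The fifth comparison asks what both agents together did against vehicle. CTSC was the only member called, and it was lower, where 0.112% of all genes were called lower and 0.384% higher. It was at 228.0, 240.2 and 191.3 CPM with both agents, under the 307.7 to 440.9 CPM of vehicle (log2 fold change −0.82 ± 0.14, 1.76-fold lower, adjusted p = 0.0412). The call was lost without 2b (adjusted p = 0.184), 2c (0.210), 5a (0.0768), 5b (0.115) or 5c (0.114), and with 3a kept in (0.184). At an unadjusted p under 0.05, 6 members were higher and 3 were lower, where 6.37% and 6.09% of all genes were. The median log2 fold change was 0.23 over the members and 0.00 over all genes, with 26 of 35 members above 0.

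The letters a, b and c paired the vehicle, osimertinib and both-agent libraries, and with the letter as a block 4 members were called. These were CTSC (log2 fold change −0.81, adjusted p = 0.0179), CTSD (1.18, 0.0450), GABARAPL1 (0.85, 0.0485) and PSAP (0.53, 0.0118), where 2.26% of all genes were then called higher and 1.42% lower. GABARAPL1 was at 76.6, 79.7 and 79.0 CPM with both agents, above the 58.5, 43.4 and 30.5 CPM of vehicle and the 55.3 to 62.0 CPM of osimertinib. PSAP was at 3291, 3019 and 2525 CPM against 2550, 2110 and 1521 CPM, and in each lettered pair the library with both agents was the higher one although the groups overlapped. DESeq2 also called 4 members, CTSC, CTSD, GABARAPL1 and TPP1, where it called 230 of all genes higher and 134 lower.

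Among the 102 other pathway genes tested, none was called by edgeR without a block for 1,25(OH)2D3, osimertinib or their combination. With the replicate letter as a block, RRAGD was called for osimertinib against vehicle (adjusted p = 0.0318), and RRAGD and IGF2R, the receptor that sorts enzymes to lysosomes, were among those called for both agents against vehicle (0.00236 and 0.0352). Of all genes tested with this block, 23 were called higher and 12 lower for osimertinib, and 2.26% higher and 1.42% lower for both agents against vehicle. At an unadjusted p under 0.05, without the block, 2 pathway genes were higher and 3 lower for 1,25(OH)2D3, where 3.64% and 3.63% of all genes were. For osimertinib there were 5 higher and 0 lower (3.62% and 3.9% of all genes), for both agents against osimertinib 4 and 2 (2.07% and 2.09%), and for both agents against vehicle 8 and 0 (6.37% and 6.09%).

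**Figure D4:**
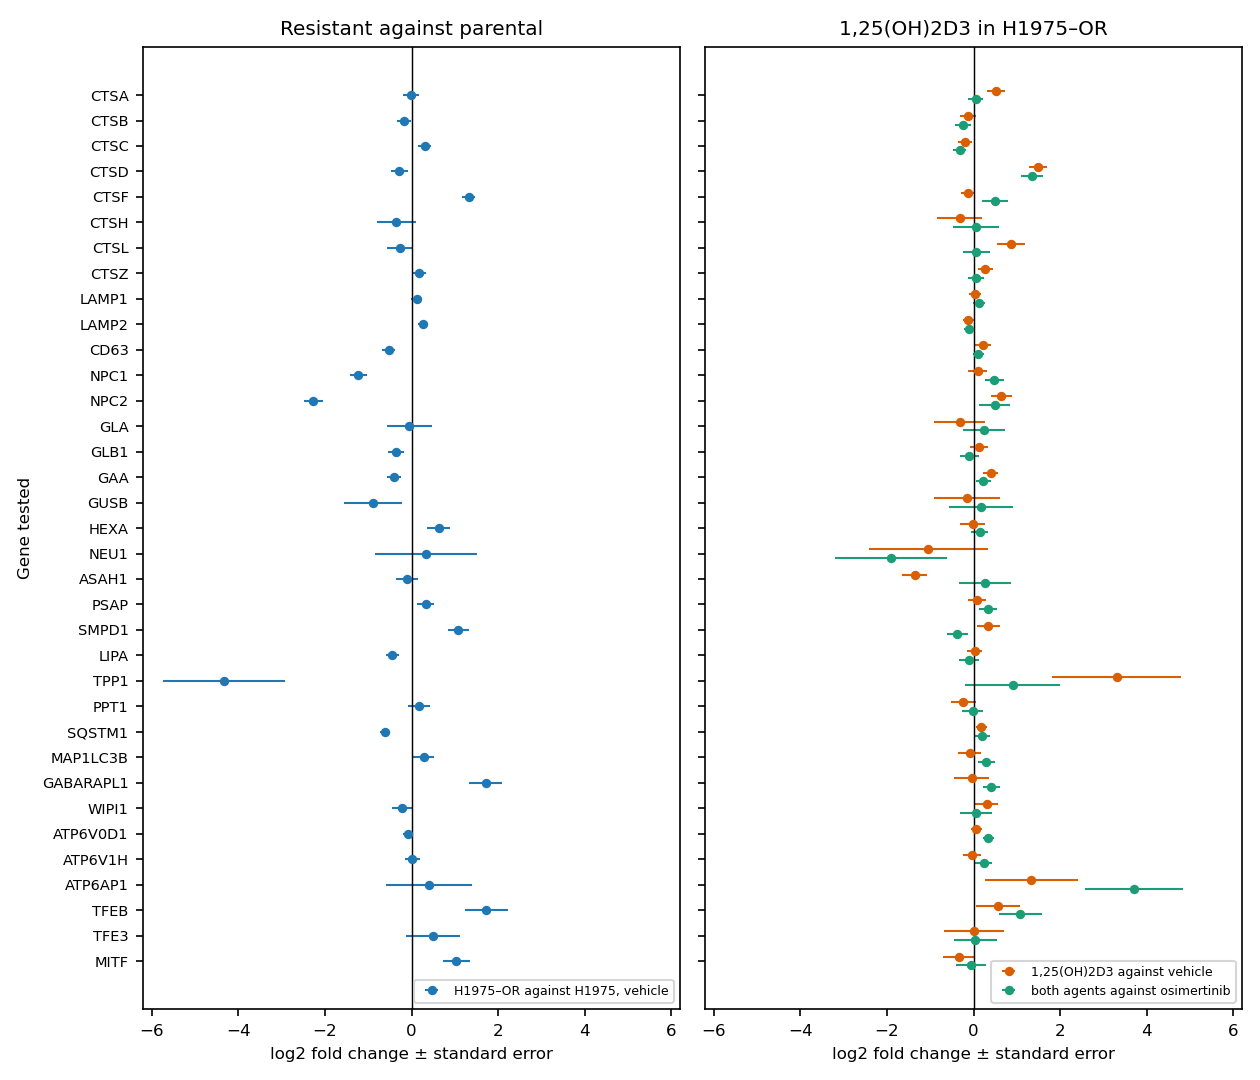
Log2 fold change (horizontal axis) with its standard error for each of the 35 genes tested, for H1975–OR against H1975 (left) and for 1,25(OH)2D3 without and with osimertinib (right). CTSD lies at 1.48 and 1.35 on the right, while ATP6AP1, NEU1 and TPP1 have the widest bars.

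None of the remaining members was called by edgeR in the main tests. Among them, LAMP2 ran from 361.0 to 498.8 CPM over the 14 libraries without 3a and LAMP1 from 154.6 to 229.2 CPM. The cathepsins CTSB and CTSZ ran from 192.2 to 337.1 CPM and from 91.5 to 165.6 CPM, and CTSH, a further cysteine protease, was low at 5.17 to 29.7 CPM. LIPA, the acid lipase that frees cholesterol from its esters, was at 307.7 CPM on average in H1975 and 223.9 CPM in vehicle-treated H1975–OR (log2 fold change −0.44 ± 0.15, adjusted p = 0.0731), and it was called by DESeq2, with the replicate letter as a block (0.0259) and without 2a. HEXA, the alpha subunit of hexosaminidase, was at 61.4 and 94.4 CPM on average (0.63 ± 0.26, adjusted p = 0.125), and was called without 1a.

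GAA, which degrades glycogen and whose element is printed above, averaged 45.1 CPM in H1975, 33.5 CPM with vehicle, 44.1 CPM with 1,25(OH)2D3, 36.7 CPM with osimertinib and 43.2 CPM with both agents. Its averaged 1,25(OH)2D3 effect was 0.31 ± 0.12 on the log2 scale (adjusted p = 0.590), and 3a was outside that range at 79.4 CPM. GLA and GLB1, the alpha- and beta-galactosidases, ran from 10.97 to 40.5 CPM and from 46.7 to 96.5 CPM, and PPT1, which removes palmitate from proteins, from 47.04 to 106.6 CPM. In the autophagy group WIPI1 ran from 9.41 to 27.2 CPM, and MAP1LC3B averaged 61.0 CPM in H1975 and was highest in 3a and 5b, at 117.2 and 111.4 CPM. ATP6V1H, a regulatory subunit of the pump, averaged 48.4 CPM with vehicle and 67.6 CPM with both agents (0.47 ± 0.20, adjusted p = 0.376).

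Several members varied widely between libraries of the same group. ATP6AP1, an accessory subunit of the V-ATPase, was at either a low or a high level, at 17.5, 95.2 and 16.1 CPM in H1975 and at 23.9, 138.8 and 6.75 CPM in vehicle-treated H1975–OR. It was at 144.4 and 139.8 CPM with 1,25(OH)2D3 (142.4 CPM in 3a), at 8.94, 6.55 and 7.57 CPM with osimertinib, and at 9.63, 155.6 and 142.3 CPM with both agents. The fitted log2 fold changes were therefore large and imprecise, −2.86 ± 1.11 for osimertinib against vehicle (adjusted p = 0.574) and 3.71 ± 1.13 for both agents against osimertinib (adjusted p = 0.742).

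NEU1, the lysosomal neuraminidase, had no counts in 2a, which allows up to 0.614 CPM at 3 counts, and was at 105.3 and 33.6 CPM in 2b and 2c. It was at 15.04 and 29.6 CPM with 1,25(OH)2D3 (57.7 CPM in 3a), at 19.6, 4.30 and 40.5 CPM with osimertinib and at 3.41, 6.58 and 7.31 CPM with both agents. The log2 fold change was −3.01 ± 1.31 for both agents against vehicle (adjusted p = 0.379) and −1.91 ± 1.29 against osimertinib (adjusted p = 1). For 1,25(OH)2D3 and for osimertinib against vehicle its sign changed without 2b.

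TPP1, the lysosomal tripeptidyl peptidase, had 4 counts in 2a and none in 2b or 2c, so no fold against vehicle-treated H1975–OR is given. It was at 0.693, 13.7 and 3.46 CPM in H1975, at 4.30 and 1.49 CPM with 1,25(OH)2D3 (13.0 CPM in 3a), at 20.6, 5.32 and 0.409 CPM with osimertinib and at 6.82, 8.70 and 34.4 CPM with both agents. Its adjusted p was 0.0620 between the cell lines and 0.162 for both agents against vehicle. GUSB, the lysosomal beta-glucuronidase, had no counts in 3a and ran from 3.21 to 27.1 CPM in the other libraries, and its levels overlapped between vehicle and osimertinib (log2 fold change 0.71 ± 0.74, adjusted p = 0.903). ASAH1 was at 25.9, 127.8 and 70.4 CPM with osimertinib and 32.7, 160.5 and 78.1 CPM with both agents. In some genes the order followed the replicate letter. GUSB rose from a to b to c in H1975 and in H1975–OR with vehicle, osimertinib or both agents. With 1,25(OH)2D3 alone, 3b was above 3c, at 6.87 and 5.76 CPM. ASAH1 rose in the order a, c, b with osimertinib and with both agents, but not in H1975 or with vehicle. The cause of these splits within groups was not tested.

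**Figure D5:**
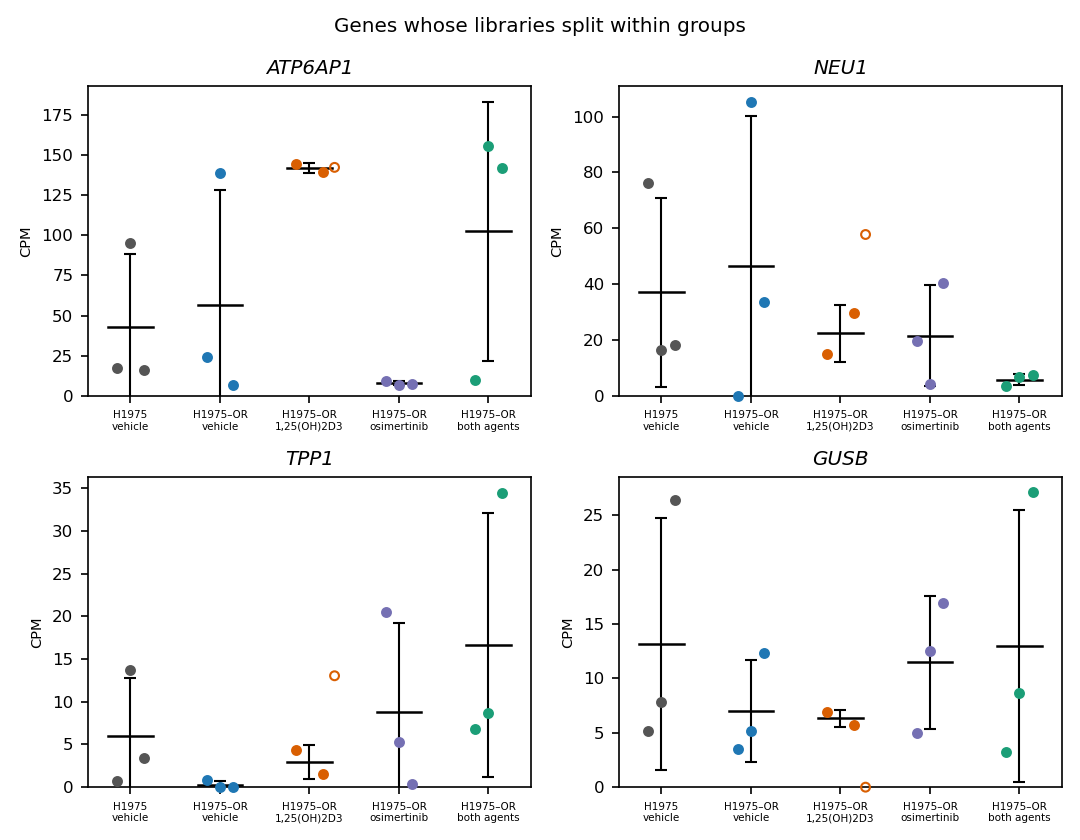
CPM (vertical axes, from 0) of ATP6AP1, NEU1, TPP1 and GUSB in each library of the 5 groups, with means as lines, 1 SD as bars without Sample 3a (lower ends stop at 0) and 3a as an open circle. ATP6AP1 lies under 24 CPM or above 95 CPM in every library, with both levels in 3 of the groups.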

How the data were processed

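RNA was isolated from H1975 and H1975–OR cells and libraries were made with a stranded total RNA kit after ribosomal RNA removal. Per the study's methods, reads were assigned to transcripts with Kallisto and summed per gene with tximport. The submitters' processing notes name kallisto 0.43.0, STAR 2.5.2b, CASAVA 1.8.2 and GRCh38, and the transcript annotation and strand setting are not given in the sources used here. The authors deposited estimated counts per gene symbol with no scaling for library size or length. Such counts divide reads among similar or overlapping transcripts, so they depend on the annotation.

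Here the estimated counts were rounded and tested with edgeR 4.0.16 (R 4.3.3), using filterByExpr by group (minimum count 10, minimum total 15), TMM scaling and the quasi-likelihood test. The first 2 comparisons used 8 libraries (12513 genes) and the others 11 H1975–OR libraries (12503 genes), all without Sample 3a. P-values were adjusted over all genes of a fit. The alternatives were DESeq2 1.42.0, RLE in place of TMM scaling, testing without the low-count filter, keeping 3a, a block for the replicate letter, a fit of 14 libraries together and leaving out each library in turn. The 11-library fit of 1,25(OH)2D3 against vehicle and the averaged 1,25(OH)2D3 effect were added after seeing the data. The test was also tried on simulated data.

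The members and lists were chosen with earlier results of these data known. Genes described in full were those called in any comparison, the 2 largest rises and 2 largest falls of each of the first 5 comparisons, and the MiT/TFE factors, and others named were chosen after their values were seen. Other pathway genes were named where called, at most the 5 largest rises and 5 largest falls. The letters were taken to pair groups where same-lettered libraries deviated together with every correlation above 0.1 over at least 3 pairs. The correlations over 11066 genes were at least 0.143 for vehicle with osimertinib, 0.119 for vehicle with both agents and 0.282 for osimertinib with both agents, and −0.04 to 0.0139 between the cell lines. Vehicle and 1,25(OH)2D3 alone had 2 such pairs (0.0793 and 0.116). Gene positions are from GENCODE 44 on GRCh38. Floors of 3 counts cover counting error only, and where groups lack stated separate cultures, p-values measure only the spread between libraries.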

Additional observations from a re-analysis of the deposited data

Results flagged for a closer look

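Sample 3a, which the main tests left out, held a CTSD signal of 1402 CPM, above the 390.6 to 630.0 CPM of the vehicle-treated H1975–OR libraries. It also held an NPC2 signal of 70.5 CPM, above their 46.1 to 60.6 CPM, though 4a, given osimertinib alone, was at 82.6 CPM. Sample 3a lay outside the range of these vehicle libraries for other members too, in both directions. It was above them for NPC1 (98.5 CPM) and GAA (79.4 CPM) and under them for CTSC (205.4 CPM) and CD63 (127.6 CPM). With 3a kept in the fit, CTSD was called for 1,25(OH)2D3 against vehicle by edgeR (adjusted p = 0.0307). The 3a values by themselves were compared without a test.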

How the results depend on the processing

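Between the cell lines 8 members were called, with 4 to 9 when each library was left out (4 without 1b, 5 without 2b) and 11 by DESeq2. Over all genes there were 1237 higher and 1284 lower, with 676 to 1338 and 736 to 1497 when each library was left out. DESeq2 called 1438 genes higher and 1603 lower between the cell lines. For 1,25(OH)2D3 against vehicle 0 were called, with 1 (CTSD) without the low-count filter, with 3a kept in and with the replicate block, and 2 by DESeq2. For osimertinib against vehicle and for both agents against osimertinib 0 were called, and 1 each by DESeq2. For both agents against vehicle 1 was called, with 0 when 3a was kept in, 4 with the replicate block, 4 by DESeq2 and 0 to 2 with each library left out. For the averaged 1,25(OH)2D3 effect 1 was called, and 0 to 1 with each library left out, 0 without 3b or 3c. With each library left out, the log2 fold change of NEU1 ran from −1.63 to 0.41 for 1,25(OH)2D3 and from −1.93 to 0.35 for osimertinib against vehicle, above 0 without 2b alone, and that of TFEB from −0.49 to 1.16 for 1,25(OH)2D3, under 0 without 3c alone. Directions were followed for 50 pairs of a member and a comparison, chosen by call, unadjusted p or fold change, or as MiT/TFE factors. In these pairs all other alternatives kept the direction, and 25 values lost and 25 gained a call. Pairs outside these could change sign, such as ASAH1 for osimertinib against vehicle, at 0.17 and at −0.18 with the replicate block. Between the cell lines, where the letters do not pair the libraries, the block again gave 8 calls among the members. Among all genes tested there, the block called 1038 higher and 1112 lower. Over all genes, the replicate block moved the calls (higher and lower) from 19 and 0 to 9 and 0 for 1,25(OH)2D3, from 4 and 2 to 23 and 12 for osimertinib, from 7 and 5 to 23 and 10 for both agents against osimertinib, from 48 and 14 to 283 and 178 against vehicle, and from 42 and 4 to 114 and 54 for the averaged effect. DESeq2 gave 79 and 45, 61 and 56, 46 and 20, 230 and 134, and 126 and 71 in that order. Low counts limit TPP1, GUSB, NEU1 and the MiT/TFE factors, and 2 libraries limit 1,25(OH)2D3 alone. The causes of these changes were not tested.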

Other observations

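RRAGD, the amino acid sensing GTPase that was higher in H1975–OR than in H1975, also had higher levels with osimertinib, but was not called there without the replicate block by edgeR. It is described here after its values were seen. It was at 29.3, 13.0 and 10.99 CPM with vehicle, at 75.0, 50.8 and 30.7 CPM with osimertinib and at 85.6, 71.2 and 42.5 CPM with both agents. Each treated group lay above the vehicle group without overlap, as did 5.96% of all genes for osimertinib and 8.08% for both agents. Samples 4c and 2a were close, at 30.7 and 29.3 CPM. By edgeR's quasi-likelihood test the log2 fold change was 1.56 ± 0.44 for osimertinib against vehicle (adjusted p = 0.386, and 0.0318 with the replicate block) and 1.90 ± 0.44 for both agents against vehicle (adjusted p = 0.117, and 0.00236 with the block). With 1,25(OH)2D3 alone RRAGD was at 17.8 and 13.0 CPM, within the range of vehicle, but at 37.4 CPM in Sample 3a, above every vehicle library.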
